A study of Mus musculus with 6 samples.

Results

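Ribosome biogenesis is the assembly line on which a cell makes new ribosomes. In the nucleolus RNA polymerase I transcribes a long precursor RNA, which small nucleolar ribonucleoproteins modify and which large processing complexes fold and cut into the RNAs of the small and large ribosomal subunits. T cells enlarge their nucleoli when their antigen receptor is engaged, and the transcription factor MYC is a known driver of many of these genes.

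The genes described here were the rows whose symbol begins with Nop, Utp, Nol or Rrp followed by a digit, the RNA polymerase I subunits Polr1a to Polr1e, Noc2l to Noc4l, and 12 further nucleolar genes named singly (Bop1, Pes1, Wdr12, Wdr43, Ddx21, Fbl, Dkc1, Npm1, Ncl, Nhp2, Gar1 and Rrn3). The choice used gene symbols only, though it was made with earlier results of these data known. It gave 54 of the 11175 genes listed. All 54 had a mean of at least 1 FPKM over the 6 libraries, the level needed to be tested, so none was left out. FPKM is the number of sequenced fragments of a gene scaled to its transcript length and to the size of the library.

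RNA came from wild-type mouse CD8+ T cells of the spleen stimulated for 48 h with antibodies to CD3, which transmits the antigen receptor's signal, and to the costimulatory receptor CD28. The 3 control libraries were from cells stimulated without DOPAC and the 3 DOPAC libraries from cells stimulated with it. DOPAC (3,4-dihydroxyphenylacetic acid) is a catechol breakdown product of dopamine. Both groups shared the stimulation, and resting cells were not analysed here. One title spells the treatment of DOPAC replicate 1 as DOOAC, while its library name and treatment label read DOPAC. The dose, the age and sex of the mice, and whether replicates were separate animals or cultures are not stated in the labels. The p-values thus reflect the variation among the 6 libraries alone, and that variation may be technical.

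Control replicate 1 stood apart from the other libraries, and results are given with and without it. Over the 10887 genes tested its Pearson correlation with each of the other 5 on the log2(FPKM + 1) scale was 0.899 to 0.917, against 0.974 to 0.992 among those 5. FPKM summed to between 283818 and 316035 per library, and as they hold no read counts the depth is unknown. Markers of CD8 T cells (Cd8a, Cd8b1, Cd3d, Cd3e and Cd3g, 5 of 5 listed) summed to between 473 and 530 FPKM. Fibroblast markers (3 of 3 listed) summed to 25.7 to 27.9 FPKM in the controls and 0.330 to 16.0 FPKM with DOPAC, and macrophage markers (2 of 4 listed) to 14.2 to 33.8 and 4.45 to 12.4 FPKM. Erythroid markers (2 of 4 listed) summed to 2.72 to 10.4 and 0.280 to 3.02 FPKM, and the B cell marker Cd79b measured 1.54 to 2.49 and 1.47 to 2.61 FPKM. Cd4, Csf1r and the NK cell marker Ncr1 were not among the genes used here. The part of these other cells in the values below was not tested, and in bulk libraries fewer cells of a type and less RNA per cell cannot be told apart.

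Ribosome biogenesis genes were abundant in both groups. Their median over the 6 libraries was 29.95 FPKM, against 7.67 FPKM for all genes tested, and 52 of 54 lay above that overall median. They spanned 4.32 FPKM (Utp14b) to 1184 FPKM (Npm1), and 18 of 54 were in the top 10% of tested genes. They made up 1.18%, 1.24% and 1.34% of summed FPKM in control replicates 1 to 3 and 1.27%, 1.28% and 1.32% in DOPAC replicates 1 to 3. Npm1 and Ncl alone supplied between 40.9% and 46.8% of the members' total. The order of the members was nearly the same in most libraries. Spearman's rho over the 54 genes was 0.942 to 0.993 among the 5 libraries other than control replicate 1 and 0.803 to 0.864 between that library and the rest, a description across genes, which are not independent replicates.

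**Figure D1:**
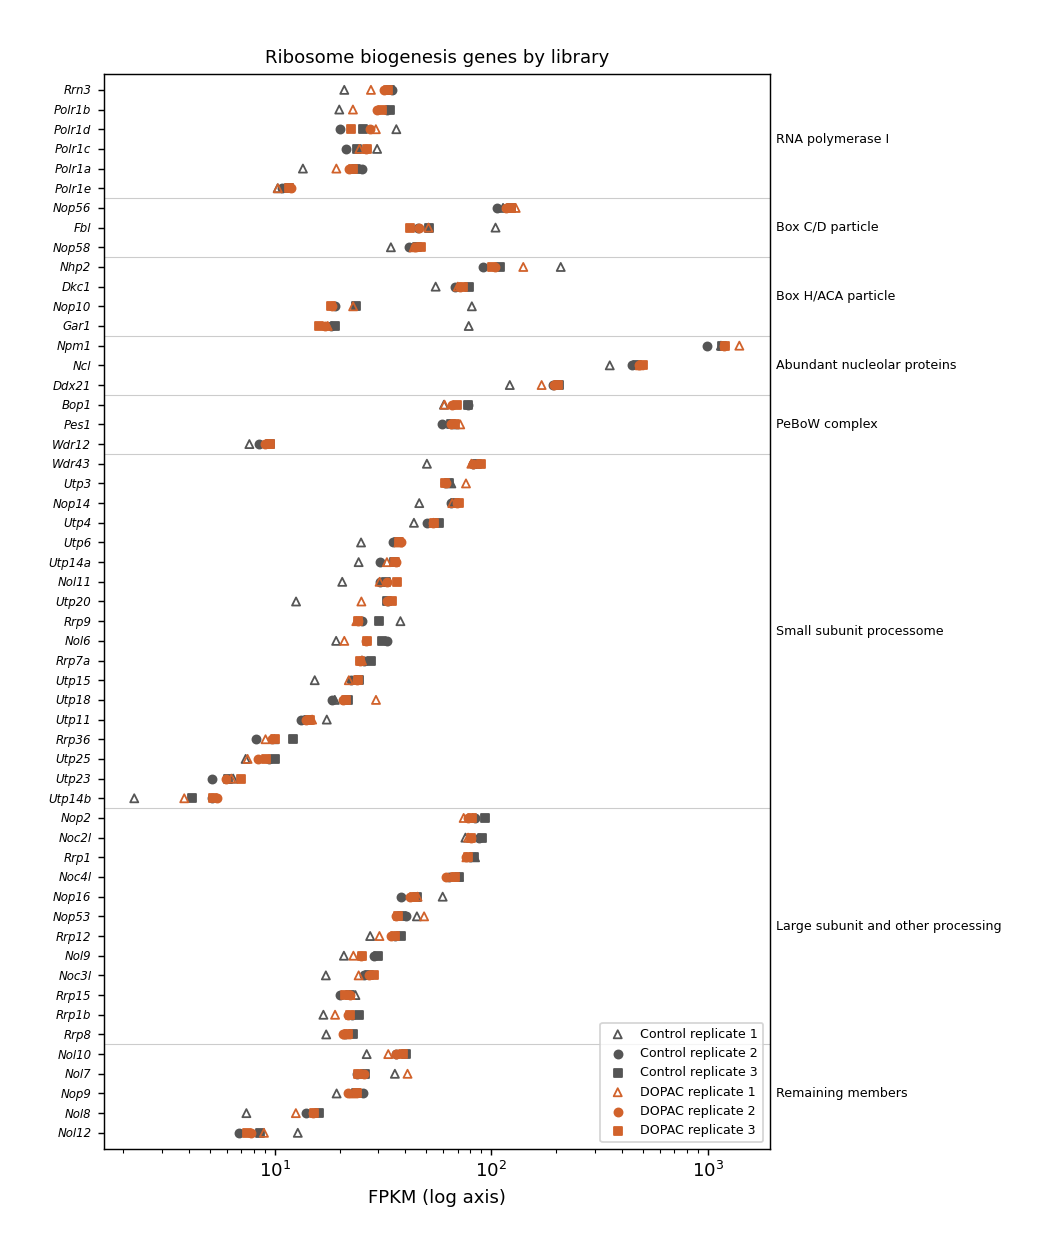
FPKM of each of the 54 ribosome biogenesis genes in each library (log axis; grey control, orange DOPAC; open triangles, filled circles and filled squares are replicates 1, 2 and 3), grouped by role and sorted by mean. For most genes the points lie close together, while control replicate 1 stands to the right for Gar1 (78.7 FPKM) and Nop10 (81.3 FPKM) and to the left for Utp20 (12.5 FPKM).

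Promoters of the members were examined for CACGTG, the E-box hexamer to which MYC and related factors bind and which reads the same on both strands. RefSeq promoters on GRCm38.p6, from 250 bases before to 50 after each start, were matched by symbol for 45 of the 54 members. The hexamer was present in 11 of these 45 genes (24.4%), against 12.6% of the 7818 listed genes with a promoter and 8.1% of all 27025 genes with one. The 11 were Nol11, Nop2, Pes1, Rrn3, Rrp7a, Utp14b, Utp18, Utp20, where the hexamer lies at the edge of the window, Utp25, Utp4 and Wdr43. A match is a description of the letters in this window and not a bound site. The 5 stretches of 30 bases below are those in which the hexamer begins within 100 bases before the start. They are shown so that the surroundings of the shared hexamer (in capitals) can be compared, 5′ to 3′ on the strand of the gene, with the position of its first base relative to the RefSeq start.
Nol11 (chr11:107189407-107189436, minus strand, position -43): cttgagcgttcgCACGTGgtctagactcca
Nop2 (chr6:125131811-125131840, plus strand, position -60): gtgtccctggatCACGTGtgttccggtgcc
Rrn3 (chr16:13780639-13780668, plus strand, position -48): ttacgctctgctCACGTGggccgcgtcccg
Utp14b (chr1:78658365-78658394, plus strand, position -63): cgcgggcgcgggCACGTGggtggggtcgtc
Utp18 (chr11:93885769-93885798, minus strand, position -20): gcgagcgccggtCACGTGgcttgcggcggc
Rrn3 held a further copy at position -215. The letter g followed the hexamer in Nol11, Rrn3, Utp14b and Utp18, and t preceded it in Nop2, Rrn3 and Utp18. The longer flanks on either side differed among the 5 genes.

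The comparison of DOPAC with control asked whether the presence of DOPAC during stimulation altered these transcripts. None of the 54 genes passed limma's test at a Benjamini-Hochberg adjusted p under 0.05 over all genes (lowest adjusted p among them 0.801), and 0% of the 10887 genes tested did. At an unadjusted p under 0.05 the members also numbered 0, against 4.19% of all genes. Log2 fold changes, on the log2(FPKM + 1) scale throughout, were positive for 32 of 54 (59.3%, against 62.1% of all genes). Their median was 0.06, against 0.07 for all genes, and they ran from -0.80 (Gar1) to 0.33 (Utp20). In 27 of 54 members (50%) the 95% interval of the change lay wholly within 0.5 of 0, against 33.9% of all genes.

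Without control replicate 1 the estimates drew together. They ran from -0.38 (Nol6) to 0.24 (Nol7) with a median of -0.003, against -0.01 for all genes, and 27 of 54 were positive (50%, against 47.3% of all genes). The 95% interval lay within 0.5 of 0 for 47 of 54 (87%, against 76% of all genes). In 17 members the sign of the change turned when this library was left out. With the 5 libraries 4 members had an unadjusted p under 0.05 in limma's test, all lower with DOPAC (Nol6, Nol9, Bop1 and Noc2l), which is 7.41% of the members against 8.89% of all genes in that direction. None was higher at that threshold, against 5.57% of all genes. With the replicate number added as a block to these 5 libraries, 3 were lower (Nol6, Nol9 and Bop1, 5.56%, against 9.9% of all genes) and Polr1c was higher (1.85%, against 5.58%). None of the 4 passed after adjustment without the block (lowest limma adjusted p 0.295), where 2 of all genes tested did (0.0184%). With the block no member passed (lowest limma adjusted p 0.285), and 0% of all genes did.

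Groups did not overlap for 7 of the 54 genes (13%), against 17.2% of all genes. The 3 DOPAC libraries lay above the 3 controls for Npm1, Ncl and Utp6 (5.56%, against 12.4% of all genes). They lay below the controls for Rrp9, Gar1, Nop2 and Rrp1 (7.41%, against 4.8% of all genes). Without control replicate 1 the DOPAC libraries lay above the other 2 controls for 4 members (7.41%, against 15.3% of all genes), namely Npm1, Ncl, Utp6 and Polr1c. They lay below them for 14 (25.9%, against 21.5% of all genes), which were Rrp9, Gar1, Nop2, Rrp1, Bop1, Noc2l, Nol6, Nol9, Polr1a, Polr1b, Rrn3, Rrp1b, Rrp7a and Utp25.

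**Figure D2:**
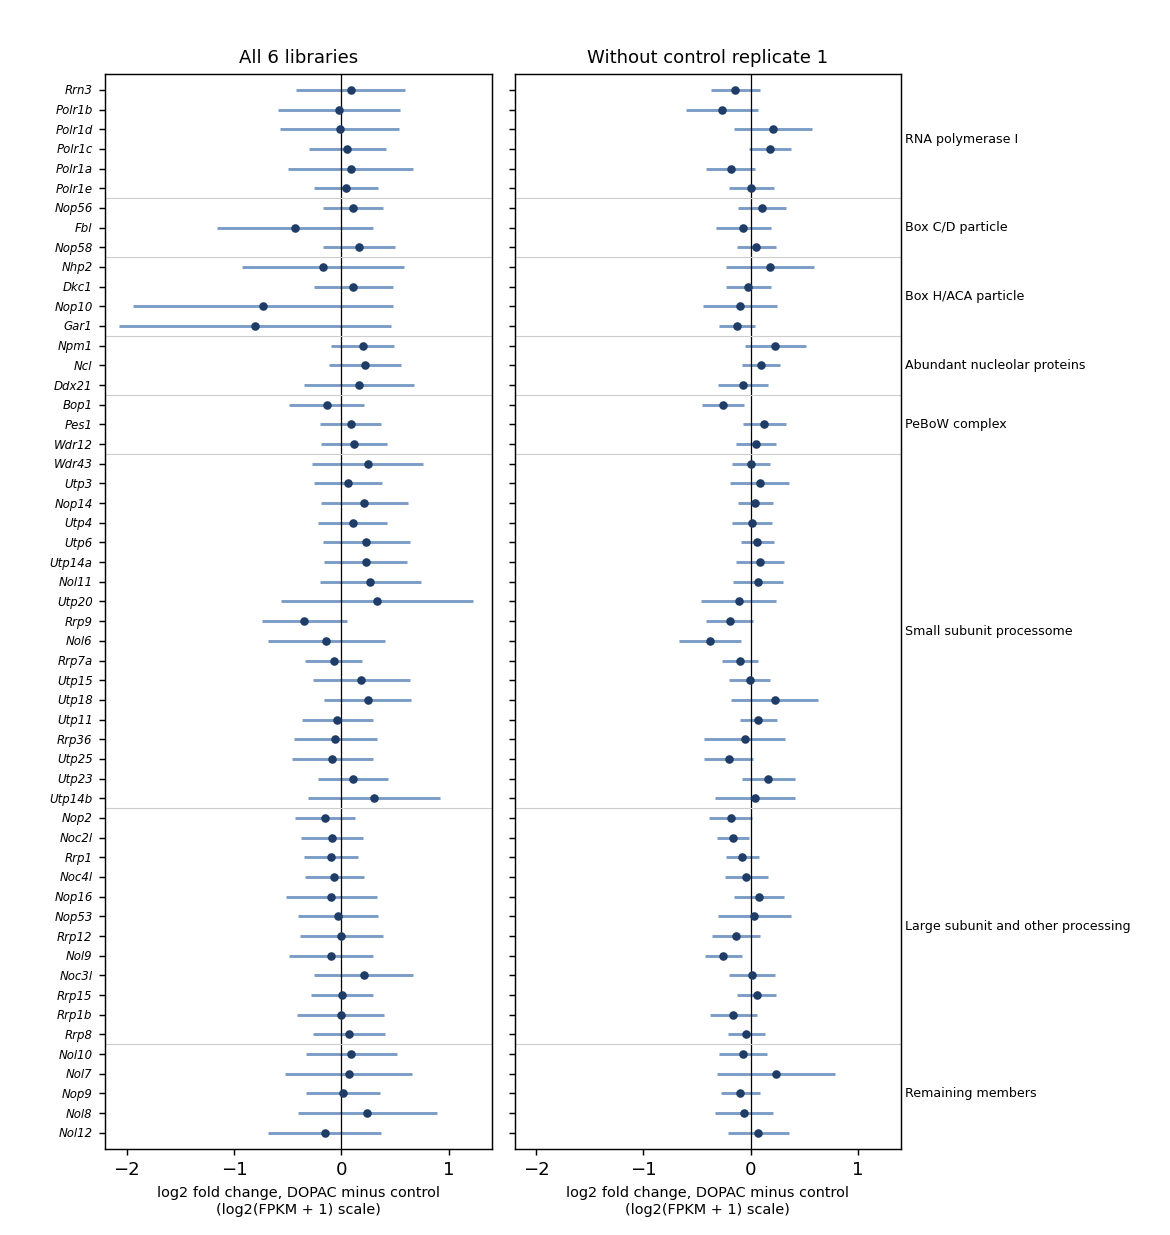
Log2 fold change of each of the 54 genes, DOPAC minus control, on the log2(FPKM + 1) scale (points, with the 95% interval of the limma fit as bars), for all 6 libraries on the left and without control replicate 1 on the right. With 6 libraries the interval of Gar1 reaches -2.07 and that of Utp20 1.23, and without control replicate 1 all 54 points lie between -0.38 and 0.24.

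RNA polymerase I, which transcribes the ribosomal RNA genes, was represented by 5 subunits and by Rrn3, the initiation factor that brings the polymerase to its promoter. Polr1a, the largest catalytic subunit, measured 13.5, 25.2 and 23.7 FPKM in control replicates 1 to 3 and 19.2, 22.1 and 23.0 FPKM in DOPAC replicates 1 to 3. Polr1b, the second catalytic subunit, measured 19.9, 33.0 and 34.0 FPKM in the controls and 23.0, 29.7 and 31.2 FPKM with DOPAC. Rrn3 measured 20.9, 34.6 and 33.9 FPKM in the controls and 27.8, 32.0 and 33.3 FPKM with DOPAC. In all 3 genes control replicate 1 was the lowest library and DOPAC replicate 1 the next lowest, and the groups overlapped. Log2 fold changes were 0.09 for Polr1a (95% interval -0.49 to 0.66), -0.02 for Polr1b (-0.59 to 0.55) and 0.09 for Rrn3 (-0.42 to 0.60). Without control replicate 1 they were -0.19, -0.26 and -0.14. Polr1c and Polr1d, subunits shared with RNA polymerase III, had their highest value in control replicate 1 (29.7 and 36.4 FPKM). Their changes were 0.06 and -0.01, and 0.18 and 0.21 without it. Polr1e, a subunit with a part in initiation, ranged only from 10.3 to 11.8 FPKM over the 6 libraries, with a change of 0.04.

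Box C/D ribonucleoproteins carry out 2′-O-methylation of ribosomal RNA, and Fbl (fibrillarin) is their methyltransferase. Fbl measured 105, 46.1 and 51.4 FPKM in the controls and 51.3, 46.2 and 42.0 FPKM with DOPAC. Control replicate 1 was at 2.21 times the mean of the other 5 libraries, and the other 2 controls overlapped the DOPAC libraries. Its log2 fold change was -0.43 (95% interval -1.16 to 0.30) with all libraries and -0.07 (-0.32 to 0.19) without control replicate 1. Nop56, a core scaffold protein of the particle, measured 113, 106 and 123 FPKM in the controls and 129.7, 117 and 123 FPKM with DOPAC. Nop58, its paralog in the same particle, measured 34.4, 41.7 and 45.3 FPKM in the controls and 43.8, 44.3 and 47.2 FPKM with DOPAC. Groups overlapped for both, and the changes were 0.11 for Nop56 (-0.17 to 0.39) and 0.16 for Nop58 (-0.17 to 0.50). The ratio of Nop56 to Fbl in FPKM was 1.08 in control replicate 1 and between 2.31 and 2.93 in the other 5 libraries. The ratio of Nop56 to Nop58 lay between 2.55 and 3.30 in all 6.

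Box H/ACA ribonucleoproteins convert uridine to pseudouridine in ribosomal RNA, and their proteins also form part of telomerase. Dkc1 (dyskerin) is the pseudouridine synthase, and Gar1, Nhp2 and Nop10 are small proteins of the same particle. Dkc1 measured 55.4, 68.0 and 79.0 FPKM in the controls and 70.1, 72.0 and 74.3 FPKM with DOPAC. Gar1 measured 78.7, 18.2 and 18.9 FPKM in the controls and 17.6, 17.1 and 16.1 FPKM with DOPAC. Nop10 measured 81.3, 19.0 and 23.7 FPKM in the controls and 23.0, 18.3 and 18.1 FPKM with DOPAC. The small partners were thus far higher in control replicate 1 than elsewhere, at 4.48 times the mean of the other 5 libraries for Gar1 and 3.98 times for Nop10, while Dkc1 was lowest there. Nhp2 measured 209, 91.2 and 110.2 FPKM in the controls and 141, 104 and 101 FPKM with DOPAC, with its highest value in the same library. Groups did not overlap for Gar1, though its other 2 controls lay close to the highest DOPAC library, and they overlapped for the other 3 genes. The log2 fold changes of Gar1, -0.80 (95% interval -2.07 to 0.46), and Nop10, -0.73 (-1.94 to 0.48), were the only 2 of the 54 with a size over 0.5 (3.7%, against 6.78% of all genes). Without control replicate 1 they were -0.13 (-0.30 to 0.04) and -0.10 (-0.45 to 0.24). Nhp2 and Dkc1 had changes of -0.17 and 0.11, and 0.18 and -0.02 without that library. The ratio of Dkc1 to Gar1 in FPKM was 0.703 in control replicate 1 and between 3.73 and 4.62 in the other 5 libraries.

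The most abundant members were Npm1, Ncl and Ddx21. Npm1 (nucleophosmin), a chaperone of histones and ribosomal proteins, measured 1150.2, 996 and 1161 FPKM in the controls and 1399.5, 1195 and 1204 FPKM with DOPAC. Each DOPAC library was above each control, with the highest control and the lowest DOPAC library close together and DOPAC replicate 1 the highest of all. Npm1 had a change of 0.20 (95% interval -0.10 to 0.50; unadjusted p = 0.156 in limma's test), which lay between 0.12 and 0.24 when each library was left out in turn. Ncl (nucleolin), which binds ribosomal RNA precursors, measured 353, 446 and 474 FPKM in the controls and 485, 483 and 503 FPKM with DOPAC. Each DOPAC library again exceeded each control, and control replicate 1 was well below the other 5. Its change was 0.22 (-0.11 to 0.56; limma unadjusted p = 0.163) and 0.09 (-0.08 to 0.27) without control replicate 1. Ddx21, an RNA helicase of ribosomal RNA transcription and processing, measured 122, 192 and 205 FPKM in the controls and 171, 196 and 203 FPKM with DOPAC. Its groups overlapped, and its change of 0.16 (-0.35 to 0.68) became -0.07 (-0.30 to 0.16) without control replicate 1.

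The PeBoW complex of Pes1, Bop1 and Wdr12 acts in the maturation of the large subunit RNAs. Pes1 measured 67.9, 59.1 and 65.5 FPKM in the controls and 71.9, 64.9 and 67.6 FPKM with DOPAC. Bop1 measured 60.4, 78.4 and 78.0 FPKM in the controls and 60.8, 65.6 and 69.7 FPKM with DOPAC. Wdr12 measured 7.63, 8.46 and 9.51 FPKM in the controls and 9.38, 9.05 and 9.53 FPKM with DOPAC. Groups overlapped for all 3 genes. Log2 fold changes were 0.09 for Pes1, -0.13 for Bop1 and 0.12 for Wdr12, and 0.13, -0.26 and 0.05 without control replicate 1. In Bop1 the other 2 controls lay above the 3 DOPAC libraries (95% interval without control replicate 1 -0.45 to -0.06; limma unadjusted p = 0.0176, adjusted p = 0.297).

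The small subunit processome is the particle that folds and cleaves the precursor of the small subunit RNA, and 18 of the 54 genes were grouped under it here. This grouping is not exhaustive, and members placed in other groups may also belong to the particle. Log2 fold changes of the 18 were positive in 12 and ran from -0.34 (Rrp9) to 0.33 (Utp20), with a median of 0.15, and 0.03 without control replicate 1. Utp20, a very large scaffold protein, measured 12.5, 33.3 and 33.1 FPKM in the controls and 25.1, 33.0 and 34.7 FPKM with DOPAC. Control replicate 1 was far below the rest, at 0.394 times the mean of the other 5, and the groups overlapped. Its change of 0.33 (95% interval -0.56 to 1.23) became -0.11 (-0.46 to 0.24) without that library. Rrp9, a WD-repeat protein of the U3 particle, which guides the early cleavages, had the smallest p of all members. It measured 38.1, 25.4 and 30.3 FPKM in the controls and 23.8, 24.2 and 24.2 FPKM with DOPAC. The 3 DOPAC libraries were nearly equal and below every control. Its change was -0.34 (-0.74 to 0.05; limma unadjusted p = 0.0782, adjusted p = 0.801) and -0.20 (-0.41 to 0.02) without control replicate 1.

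Most Utp genes are named after the U3 particle with which their proteins were found. Utp18 measured 18.9, 18.4 and 21.8 FPKM in the controls and 29.3, 20.7 and 21.4 FPKM with DOPAC. DOPAC replicate 1 was the highest library, the groups overlapped, and the change of 0.25 was 0.09 without that library. Utp14a measured 24.4, 30.6 and 35.5 FPKM in the controls and 33.0, 36.3 and 36.1 FPKM with DOPAC (change 0.23, 95% interval -0.16 to 0.61). Utp14b, a retrotransposed copy of Utp14a with a role in sperm formation, was the lowest member at 2.24, 5.11 and 4.14 FPKM in the controls and 3.82, 5.43 and 5.16 FPKM with DOPAC. Groups overlapped for both genes, and the change of Utp14b was 0.30 (-0.31 to 0.92), or 0.04 without control replicate 1. Utp23, the next lowest member by mean, measured 6.43, 5.14 and 6.10 FPKM in the controls and 6.30, 5.93 and 6.97 FPKM with DOPAC. Utp25 measured 7.33, 9.45 and 10.01 FPKM in the controls and 7.49, 8.38 and 9.12 FPKM with DOPAC. Both had overlapping groups, with changes of 0.11 and -0.08. Without control replicate 1 the changes were 0.16 for Utp23 and -0.20 for Utp25 (95% interval -0.44 to 0.03). For Utp25 every DOPAC library lay below control replicates 2 and 3. Utp6 separated the groups narrowly, with its highest control at 37.0 FPKM and its lowest DOPAC library at 37.3 FPKM (change 0.23, or 0.06 without control replicate 1).

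The remaining processome genes all had overlapping groups. Changes were 0.25 for Wdr43, 0.06 for Utp3, 0.11 for Utp4, 0.19 for Utp15 and -0.04 for Utp11. Nol11 had 0.27, Nop14 0.21, Nol6 -0.14, Rrp7a -0.07 and Rrp36 -0.06. Several of these values came down to near 0 without control replicate 1, which left 0.003 for Wdr43, 0.07 for Nol11, 0.04 for Nop14, 0.01 for Utp4 and -0.01 for Utp15. The same fit gave 0.08 for Utp3, 0.07 for Utp11, -0.10 for Rrp7a and -0.06 for Rrp36. Nol6 measured 19.2, 33.0 and 31.2 FPKM in the controls and 20.9, 26.4 and 26.5 FPKM with DOPAC. Replicate 1 was the lowest library of each group, and without control replicate 1 the change of Nol6 was -0.38 (-0.66 to -0.09; limma unadjusted p = 0.0191, adjusted p = 0.298). Of the 5 genes whose promoter letters are printed above, only Nop2 had a negative change with all 6 libraries. Without control replicate 1, Nop2 (-0.19) and Rrn3 (-0.14) had one. Among the other members with the hexamer, Rrp7a and Utp25 (-0.08) had negative changes with all 6 libraries. Pes1, Utp20, Utp4 and Wdr43 had positive ones. Without control replicate 1, Rrp7a, Utp20 (-0.11) and Utp25 (-0.20) were negative and Pes1, Utp4 and Wdr43 positive. Over all genes 62.1% of changes were positive with all 6 libraries and 47.3% without control replicate 1.

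Genes of large subunit assembly and other processing steps numbered 12, with 4 positive and 8 negative changes between -0.15 (Nop2) and 0.21 (Noc3l). Nop2, a methyltransferase of the large subunit RNA, ranged from 82.2 to 93.8 FPKM in the controls and from 74.6 to 81.7 FPKM with DOPAC, without overlap (95% interval -0.43 to 0.13). Rrp1 ranged from 79.7 to 84.2 FPKM and from 76.1 to 77.8 FPKM, also without overlap (change -0.10, -0.35 to 0.15). NOC proteins, which accompany early preribosomes, differed in sign, with -0.09 for Noc2l, 0.21 for Noc3l and -0.06 for Noc4l, and the groups of all 3 overlapped. Changes were -0.09 for Nop16, -0.03 for Nop53, which recruits the nuclear exosome to the large subunit precursor, and -0.10 for Nol9, a polynucleotide kinase of spacer processing. Rrp1b had -0.01, Rrp8 0.07, Rrp12 0.001 and Rrp15 0.002. With control replicate 1 left out Noc3l had 0.01, Noc4l -0.04, Nop16 0.08 and Nop53 0.03, and Rrp1b, Rrp8, Rrp12 and Rrp15 had -0.16, -0.04, -0.14 and 0.05. Nol9 measured 20.9, 28.8 and 29.9 FPKM in the controls and 23.1, 25.0 and 25.2 FPKM with DOPAC. Its groups overlapped through control replicate 1, without which its change was -0.25 (-0.43 to -0.08) and that of Noc2l -0.16 (-0.32 to -0.01). Of the 5 genes outside these groups, Nol8 had 0.24, Nol10 0.09, Nol7 0.07, Nop9 0.02 and Nol12 -0.16, and without control replicate 1 they had -0.07, -0.08, 0.24, -0.10 and 0.07. Nol7 ranged from 23.9 to 35.9 FPKM in the controls and from 24.3 to 41.0 FPKM with DOPAC, with replicate 1 the highest of each group.

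Spread among the 5 libraries other than control replicate 1 was narrow. The highest of the 5 was 1.22 times the lowest in the median member. Utp6 (1.09 times), Nop14 (1.09 times) and Rrp1 (1.09 times) had the smallest ratios and Nol7 (1.72 times), Utp18 (1.59 times) and Nol6 (1.57 times) the largest. With control replicate 1 the median ratio was 1.47. That library was the highest of the 6 for 12 members (22.2%, against 20.9% of all genes) and the lowest for 30 (55.6%, against 58.6%). It held 56.3% of the members' squared deviation from their group means, against 50.6% over all genes.

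The deviation of control replicate 1 ran with transcript length. Across the 54 members, Spearman's rho between the length of the principal annotated transcript and the log2 deviation of this library from the mean of the other 5 was -0.73, against -0.69 over the 9531 tested genes with such a length. Of the 18 members with the shortest transcripts (1042 to 2075 bases) 15 lay above that mean, of the middle 18 (2232 to 3582 bases) 3 did, and of the longest 18 (3694 to 10012 bases) 1 did. Gar1 (1271 bases) deviated by 2.10, Nop10 (1109 bases) by 1.95, Fbl (1197 bases) by 1.13 and Nhp2 (1042 bases) by 0.94. Polr1a (9216 bases) deviated by -0.70 and Utp20 (8821 bases) by -1.27. Nol12 (3721 bases), at 0.63, and Wdr12 (10012 bases), at -0.24, lay off this trend. These correlations are across genes that share the same libraries and carry no p.

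**Figure D3:**
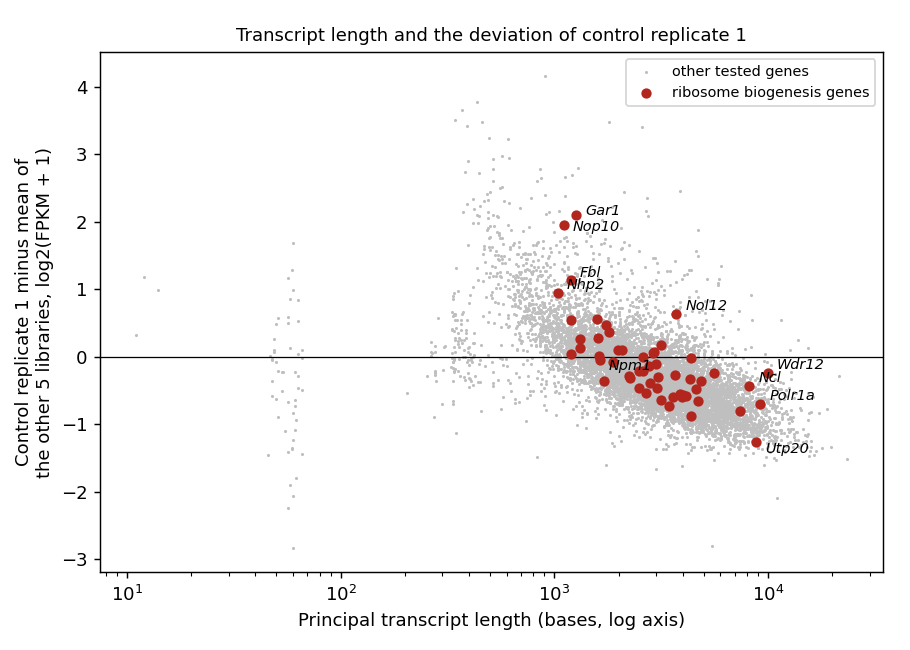
Length of the principal transcript (bases, log axis) against the deviation of control replicate 1 from the mean of the other 5 libraries (log2(FPKM + 1) scale) for the 54 ribosome biogenesis genes (red) and the other tested genes (grey). The red points follow the grey cloud, from Gar1 at 2.10 among the short transcripts to Utp20 at -1.27 among the long ones.

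Log2 fold changes of the members ran with length as well, with a rho of 0.44 over 6 libraries (0.41 over all genes) and -0.32 without control replicate 1 (-0.20 over all genes). In the shortest, middle and longest classes the median change was -0.05, 0.09 and 0.10 with all libraries and 0.06, 0.003 and -0.08 without control replicate 1. Among the 5 libraries left, the deviation of DOPAC replicate 1 from the mean of the other 4 had a rho of -0.57 with length over the members (-0.41 over all genes). The same rho was 0.20 and 0.46 for DOPAC replicates 2 and 3 and 0.48 and 0.02 for control replicates 2 and 3. A further fit removed from each library a trend on the summed length of all exons of a gene, not on the principal transcript length used above. The 2 lengths differ widely for some members, such as Fbl (principal transcript 1197 bases, summed exons 4209 bases). In that fit 25 of 54 changes were positive (46.3%, against 51.1% of all genes) with a median of -0.03. One member, Nol9, then had an unadjusted p under 0.05 (change -0.19, limma unadjusted p = 0.0433, limma adjusted p = 0.476). That is 1.85% of the members, against 10.3% of all genes at that threshold and 0% after adjustment.

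**Figure D4:**
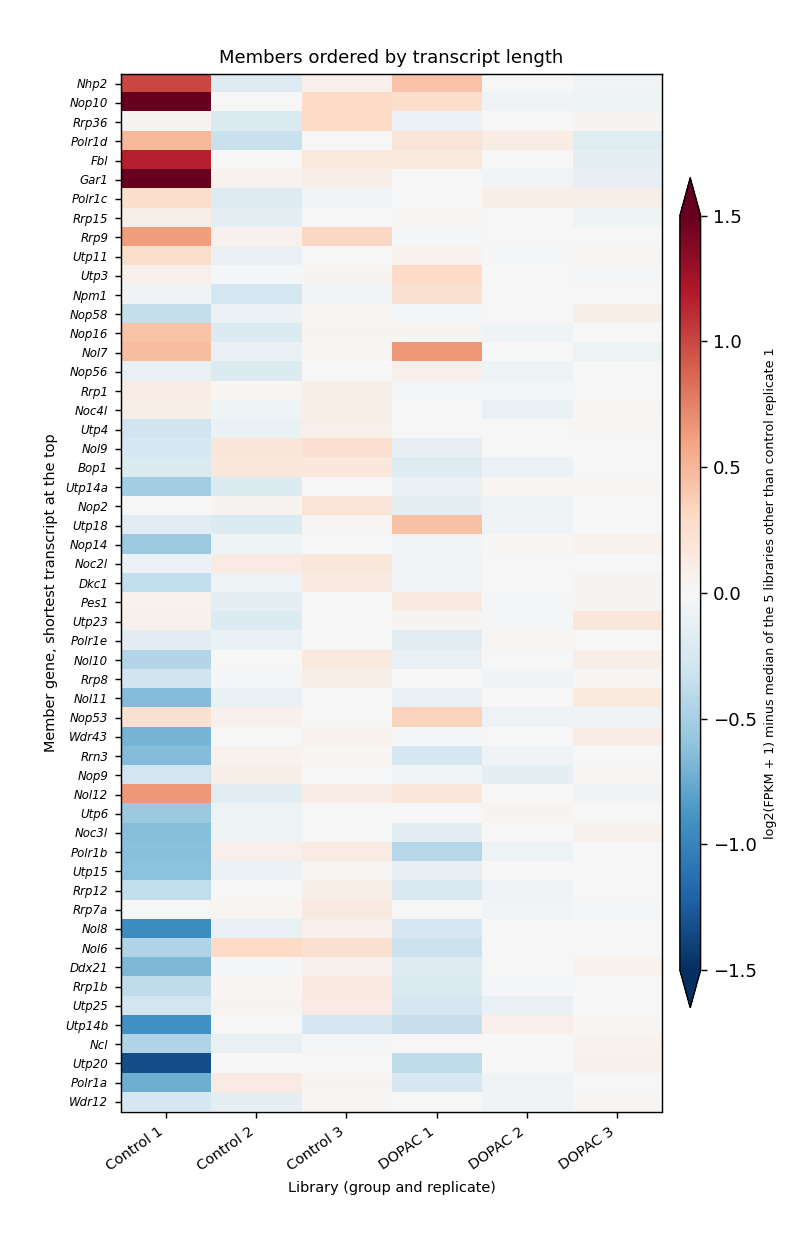
Level of each of the 54 genes in each library as log2(FPKM + 1) minus the median of the 5 libraries other than control replicate 1 (red higher, blue lower, colours limited to 1.5 on either side), with the shortest principal transcript at the top. The first column passes from mostly red at the top, where Gar1 and Nop10 lie, to mostly blue at the bottom, and the other 5 columns are mostly pale.

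Other genes of the same pathway came from a list of 87 outside the symbol rule, of which 86 were found and tested. None passed after adjustment, 51 had positive changes and 35 negative, and the median was 0.06. At an unadjusted p under 0.05 in limma's test 2 of the 86 were higher and 3 lower with DOPAC. Over the 10887 genes tested 297 (2.73%) were higher and 159 (1.46%) lower. Taf1b, of the initiation complex of RNA polymerase I, and Polr1f, a polymerase subunit, had changes of 0.34 and 0.43. Exosc4 of the RNA exosome, Nle1 of large subunit assembly and Bysl of small subunit assembly had -0.36, -0.33 and -0.29. The groups of these 5 genes did not overlap, but the genes were picked by p in the same libraries, so this adds no support. The groups of Ddx10, Riok1, Mphosph10, Gtpbp4, Gnl2, Esf1, Taf1a, Wdr36 and Exosc10 did not overlap either, with the DOPAC libraries higher. Those of Exosc2, Exosc5, Wdr46 and Ddx49 did not overlap, with the DOPAC libraries lower. Of all genes 17.2% did not overlap, 12.4% higher with DOPAC and 4.8% lower. With the replicate number as a block 0 of the 86 were higher and 1 (Exosc4) was lower at that threshold. Over the 10887 genes tested 278 (2.55%) were higher and 208 (1.91%) lower. Without control replicate 1 the median of the list was -0.004. In that fit 5 higher and 10 lower genes of the 86 had an unadjusted p under 0.05 in limma's test. The counts over the 10887 genes tested were 606 (5.57%) and 968 (8.89%). None of the list passed after adjustment. Cytosolic ribosomal protein genes, whose products are built into the new ribosomes, had a median change of -0.34 with 9 of 85 positive. Without control replicate 1 their median was 0.06 with 54 of 85 positive. The median level of these 85 genes was 371 FPKM in control replicate 1 and 144 to 185 FPKM in the other 5 libraries.

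The members lie on 19 chromosomes in the GENCODE M21 annotation of GRCm38. Small nucleolar RNA genes, which guide the modifications made by the C/D and H/ACA particles, lie within 6 of the 54 on the same strand (11.1%, against 2.67% of the 11067 listed genes found there). Nop56 (chromosome 2, 130274430 to 130279313) held 5 of them and Nop58 (chromosome 1, 59684971 to 59719044) 4. Ncl (chromosome 1, 86344719 to 86359400) and Wdr43 (chromosome 17, 71615895 to 71659031) held 3 each, and Dkc1 and Nop53 held 1 each. The log2 fold changes of these 6 hosts lay between -0.03 and 0.25. Copies with at least 95% identity over at least 50% of a transcript were annotated for Nop56 (4), Npm1 (3), Wdr12 (2), Fbl, Pes1 and Rrp7a (1 each), so the values of these 6 genes are uncertain. Exons of another gene covered at least 10% of the exon length of Noc2l, Nol7, Nop9, Rrp7a, Utp14a and Utp23. The libraries do not mark strand, so the reads of such overlapping genes cannot be told apart.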

How the data were processed

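Transcripts were measured in 6 libraries (3 control, 3 DOPAC). Per the labels' protocols, a SMART-Seq HT kit gave full-length cDNA and a Nextera XT kit the libraries, neither of which records strand. Per the submitters' processing notes, cutadapt 1.9, HISAT2 2.2.1 and mm10 were used. For the estimator and annotation, no source used here gives a name. Per the file headers, the authors deposited an FPKM for every gene in every library. In 11175 of 11175 genes the authors' deposited log2 fold change matched, within 1e-06, the DOPAC mean minus the control mean of log2(FPKM + 1). The deposited p-values, per the file headers, were not used for any result here. Whole reads could not be recovered from low values, of which 15.4% to 17.0% per library at best lay within 0.05 of a whole multiple, against 10% by even spread.

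Log2(FPKM + 1) was fitted with limma 3.58.1 in R 4.3.3 (mean-variance trend, DOPAC against control) over the 10887 genes with a mean of at least 1 FPKM (288 left out). Benjamini-Hochberg adjustment ran over all of them with a threshold of 0.05, and intervals are 95%. The fit was tested on simulated data with independent noise of the same spread in every library. That test does not cover a library that stands apart, as control replicate 1 does. Members and lists were chosen with earlier results of these data known. All members were named, by role. Values in every library were given for the 4 smallest p in each direction, the 3 highest and 3 lowest levels and 14 genes fixed by role, and, chosen after their values were seen, for Nhp2, Nol6 and Nol9. Alternatives were other pseudocounts, filters and scalings, a length trend removed, library weights, a replicate block and each library left out. Deviations of same-numbered libraries from their group means correlated at 0.34, 0.16 and 0.28. Control replicate 2 with DOPAC replicate 3 (0.24) and control replicate 3 with DOPAC replicate 2 (0.19) were as high as some of these. The main fit did not use replicate numbers. Each same-numbered value was over 0.1, so numbers were used as pairs, but only in the fits with a replicate block. The different-numbered values of 0.24 and 0.19 exceed 0.1 as well, and no label names an animal or a day that same-numbered libraries share. These correlations therefore cannot show that the numbers mark pairs. Copies were searched with minimap2 2.31. Figures used Python 3.11.15 and matplotlib 3.10.9.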

Additional observations from a re-analysis of the deposited data

How the results depend on the processing

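Each result was recomputed with pseudocounts of 0.1 and 0.5, without a filter, with a filter of 5 FPKM (53 members left, Utp14b out), with quantile normalization, equal medians, a length trend removed, library weights, a replicate block and each library left out. Under these the number of members passing limma's test was 0, their median log2 fold change lay between -0.03 and 0.09, and 25 to 35 were positive. Genes passing over the whole table numbered 0 to 2 when a library was left out and 2 with library weights. With the replicate block, which treats same-numbered libraries as pairs, 0 genes passed and the members' median stayed at 0.06. Equal medians took the median of all genes from 0.07 to 0.01 and that of the members to about 0. A sign change occurred under at least 1 alternative in 27 of 54 members, and the cause was not tested. The unknown depth limits what can be said of low genes.

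With quantile normalization the log2 fold changes that turned were Nop9 -0.034, Polr1e -0.0072, Rrp12 -0.026 and Rrp15 -0.028. With equal medians the log2 fold changes that turned were Nop9 -0.044, Polr1c -0.0022, Polr1e -0.017, Rrp12 -0.057 and Rrp15 -0.056. With the length trend removed the log2 fold changes that turned were Nop58 -0.013, Nop9 -0.046, Polr1a -0.10, Polr1e -0.024, Rrp12 -0.078, Rrp15 -0.034 and Wdr12 -0.068. With library weights the log2 fold changes that turned were Nhp2 0.094, Nol12 0.061, Nop16 0.088, Nop9 -0.12, Polr1a -0.12, Polr1d 0.22, Rrn3 -0.067, Rrp12 -0.049, Rrp36 0.086, Rrp8 -0.0094 and Utp11 0.065. With the block and control replicate 1 left out together, added after seeing the data, the log2 fold changes that turned were Dkc1 -0.0025, Nhp2 0.034, Nol10 -0.021, Nol12 0.0039, Nop16 0.049, Nop9 -0.10, Polr1a -0.11, Polr1d 0.13, Rrn3 -0.067, Rrp12 -0.067, Rrp8 -0.049, Utp11 0.052 and Utp3 -0.020. Leaving out each library in turn gave ranges of Ddx21 -0.070 to 0.30, Dkc1 -0.023 to 0.23, Nhp2 -0.41 to 0.18, Nol10 -0.076 to 0.21, Nol12 -0.34 to 0.070, Nol7 -0.16 to 0.24, Nol8 -0.066 to 0.44 and Nop16 -0.24 to 0.076. The same ranges were Nop53 -0.17 to 0.042, Nop9 -0.10 to 0.094, Polr1a -0.19 to 0.24, Polr1b -0.26 to 0.11, Polr1c -0.046 to 0.18, Polr1d -0.21 to 0.21, Rrn3 -0.14 to 0.21 and Rrp12 -0.14 to 0.093. The others that turned were Rrp15 -0.060 to 0.055, Rrp1b -0.16 to 0.094, Rrp36 -0.18 to 0.072, Rrp8 -0.043 to 0.15, Utp11 -0.12 to 0.071, Utp15 -0.0090 to 0.31, Utp20 -0.11 to 0.56 and Utp3 -0.042 to 0.12.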
